A study of Mus musculus with 6 samples.

Results

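Foxq1, the gene mutated in satin mice, was measured in whole mouse skin by 1 of the 12488 probe sets of the array. It was found by its symbol in the platform annotation (Entrez 15220), and it is 1 of 8251 genes with a name of their own there. RNA was compared between 3 samples of FVB mice, an albino inbred strain, and 3 samples of GC13 mice, which carry a transgene and overexpress Hoxc13. All 6 samples were total skin taken 5 days after birth, when the first hair coat is growing. The sources used here do not give the promoter that drives the transgene, the number of founders, the sex of the animals or any pooling. Nothing in the labels ties each sample to a mouse of its own, so the p-values below rest on a spread between samples that may be technical.

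Foxq1 encodes a forkhead transcription factor, a protein that binds DNA through a winged-helix domain. In the hair follicle it acts in the cells that build the hair shaft, and its loss gives the silky, shiny satin coat, in which the medulla, the central column of the hair, is malformed. Hoxc13, a homeodomain transcription factor, is made in the same differentiating cells and controls hair keratin genes. The comparison asks whether the level of Foxq1 depends on Hoxc13. Hoxc13 itself had 0 probe sets in the annotation, so the overexpression could not be checked here.

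On each of the 3 GC13 arrays the Foxq1 signal lay below that of all 3 FVB arrays. Its intensity, the deposited brightness of the probe set on a linear scale, was 109, 126 and 131 on the 3 FVB arrays. On the 3 GC13 arrays it was 54.7, 66.9 and 53.0. The groups did not overlap, and GC13 replicate 2 was the closest to FVB. The mean was 122 ± 11.4 (SD, n = 3) in FVB against 58.2 ± 7.55 (SD, n = 3) in GC13, so the GC13 mean was 47.6% of the FVB mean. Taken singly, GC13 replicates 1, 2 and 3 had 44.7%, 54.7% and 43.4% of the FVB mean. Over the 9 pairs of an FVB with a GC13 array, the FVB intensity was between 1.64 and 2.47 times the GC13 intensity. The spread within a group was much smaller, with the highest array at 1.20 times the lowest in FVB against 1.26 times in GC13. The probe set was of middling to high brightness, since 71.9% to 75.4% of probe sets were dimmer on the FVB arrays and 57.0% to 64.8% on the GC13 arrays.

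**Figure D1:**
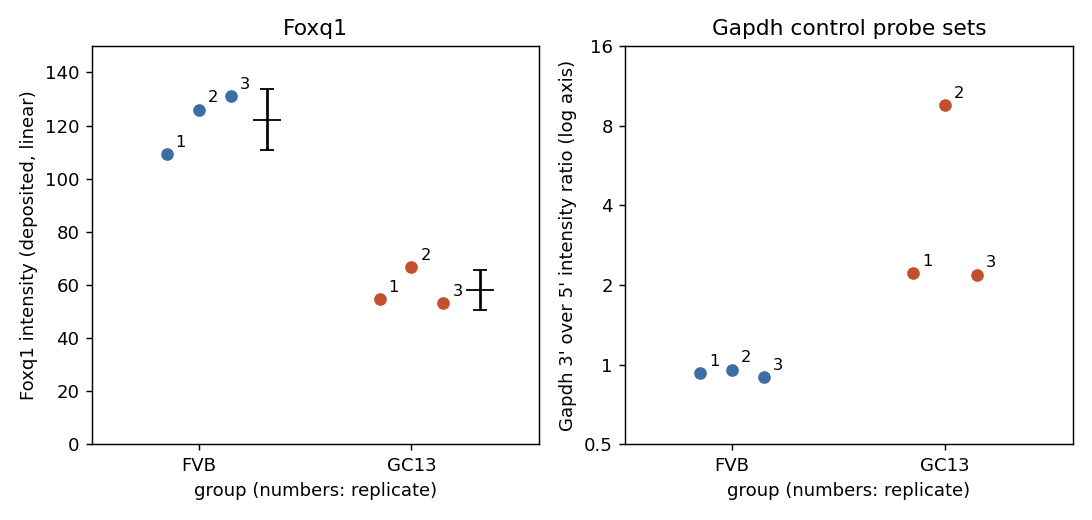
Left, deposited linear intensity of Foxq1 on each array (points, numbered by replicate) with the group mean and SD (black, n = 3); right, Gapdh intensity at the 3' end over that at the 5' end (control probe sets) on the same arrays, on a log axis. The 3 FVB arrays had Foxq1 between 109 and 131 and the 3 GC13 arrays between 53.0 and 66.9, and GC13 replicate 2 had both the highest Foxq1 of its group and the highest Gapdh ratio.

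In the fit across all probe sets the difference did not pass the threshold. On the log2(intensity + 2) scale, centred on each array's median, the Foxq1 values were 1.62, 1.76 and 1.80 in FVB against 0.63, 1.14 and 0.48 in GC13. The log2 fold change (the difference of the log2 means, GC13 minus FVB) was -0.97 (SE 0.24, 95% interval -1.52 to -0.43), a 1.97-fold lower level. The limma p was 0.00341 before and 0.135 after Benjamini-Hochberg adjustment over 9316 probe sets, where 44 (0.472%) passed at 0.05, 36 of them lower (0.386%) and 8 higher (0.0859%) in GC13. The exact two-sided permutation test of Foxq1 alone gave p = 0.1, the smallest that 3 against 3 arrays allow. Before adjustment 1440 probe sets (15.5%) had a p under 0.05, 646 of them lower in GC13 (6.93%), the background for the unadjusted counts below. Below 0 lay 42.6% of the probe sets tested, while 231 (2.48%) had a smaller p and 316 (3.39%) a lower log2 fold change. Groups that do not overlap were common on these arrays. All 3 GC13 values lay below all 3 FVB values for 923 probe sets (9.91%), Foxq1 among them, and above them for 1360 (14.6%). These shares are the background for the counts without overlap below. The residual SD of Foxq1 was 0.26, against a median of 0.34 over all probe sets tested.

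GC13 replicate 2 decided the side of the threshold on which Foxq1 lay. On the centred scale that array was 0.58 below the FVB mean, while replicates 1 and 3 were 1.10 and 1.25 below it. Without it the log2 fold change was -1.17 (SE 0.15, limma adjusted p = 0.0108), in a fit where 1379 probe sets (14.8%) passed. The Gapdh 3' over 5' ratio, a measure of RNA degradation that rises as 5' ends disappear, lay between 0.894 and 0.958 in FVB, 2.22 and 2.19 on GC13 replicates 1 and 3 and 9.58 on GC13 replicate 2. The beta-actin ratio set 1 array apart, at 3.80 on GC13 replicate 2 against 1.26 and 1.43 on the other GC13 arrays and 1.16 to 1.36 in FVB. By the Gapdh ratio, RNA quality and line cannot be told apart. Within GC13, replicate 2 had the highest Gapdh ratio and the highest Foxq1 intensity. With the log2 ratio as a covariate the log2 fold change was -1.52 (limma adjusted p = 0.0122), where 23.2% of probe sets passed. Eif2s3y, which lies on the Y chromosome, had 69.4 to 98.9 in FVB, 3.25 and 4.60 on GC13 replicates 1 and 3, and 143 on replicate 2. Without GC13 replicate 2, every FVB array was bright for this gene and every GC13 array dim. By this gene, sex and line cannot be told apart in that fit. With Eif2s3y as a covariate the log2 fold change of Foxq1 was -0.68 (limma adjusted p = 0.0648), and the part of sex in the difference was not tested beyond this fit.

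**Figure D2:**
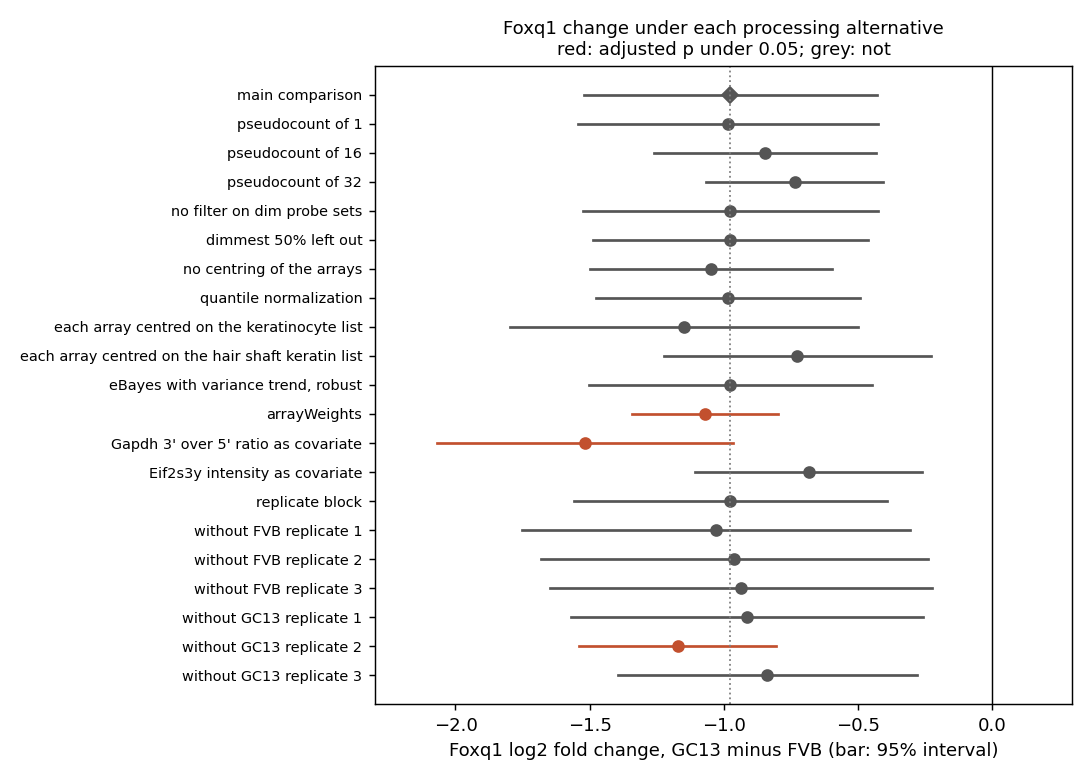
Log2 fold change of Foxq1, GC13 minus FVB, with its 95% interval from limma, in the main comparison (diamond) and under each of 20 alternatives (circles), in red where the adjusted p was under 0.05. All 20 lay between -1.52 and -0.68 and 3 passed: array weights, the Gapdh ratio as covariate and the comparison without GC13 replicate 2.

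Skin is a mixture, and a lower Foxq1 signal can come from fewer follicle cells or from less Foxq1 RNA per cell, which cannot be told apart in whole tissue. Keratinocyte markers, which the follicle shares with the epidermis, had a median log2 fold change of 0.14 over 18 tested of 24 listed genes, against 0.08 over all probe sets tested. That median was -0.04 with the arrays centred on the list, -0.02 with the Gapdh ratio as covariate, 0.21 without FVB replicate 1 and 0.08 without FVB replicate 2. Their summed intensity ran from 12799 to 13493 in FVB and from 12196 to 15590 in GC13. Of the 18, none passed in limma and 2 had an unadjusted p under 0.05 (15.5% over all probe sets). These were Krt1, with a log2 fold change of 1.11 (mean 1289 in FVB against 2829 in GC13), and Sfn, with -0.66. Without overlap, 2 were lower, Sfn among them, and 2 higher, Krt1 among them. Trp63, the master regulator of stratified epithelium, had 437 ± 18.8 in FVB against 422 ± 55.2 in GC13 (SD, n = 3). Krt10, a keratin of the suprabasal epidermis, had 2090 ± 120 and 2169 ± 168. The basal keratins Krt5, Krt14 and Krt15, abundant in skin, were dim on all 6 arrays, between 0.676 and 14.2, although the labels name skin. Foxq1 was also set, on each array, against the mean of the 21 listed genes with a probe set. These include the dim Krt5, Krt14 and Krt15, whose log2 differences, not tested, were 0.87, 0.38 and 0.53. Foxq1 then had a log2 fold change of -1.15, where the median of all probe sets tested was -0.09.

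The hair shaft keratins, structural proteins of the hair whose genes Hoxc13 controls, had a median of -0.28 over 10 tested of 16 listed genes, or -0.18 without GC13 replicate 3 and -0.06 with Eif2s3y as covariate. None of the 10 passed in limma, 2 of 10 had an unadjusted p under 0.05 (15.5% over all probe sets), and 3 lay lower without overlap. Their summed intensity was 17440 to 18323 in FVB against 14253 to 16537 in GC13. Krt84, a type II hair keratin, had 77.1, 83.9 and 84.7 in FVB against 33.7, 39.7 and 48.9 in GC13. Its log2 difference of -0.91 (SE 0.21, limma adjusted p = 0.126) was closest to that of Foxq1, and a dimmer probe set of the gene had -3.18. Krt83, Krt86 and Krt34 had -0.66, -0.47 and -0.44, so no keratin of the list, by its brightest probe set, had as low a value as Foxq1. Set against this list on each array, Foxq1 had a log2 difference of -0.73 (SE 0.21, limma adjusted p = 0.101), where the median of all probe sets tested was 0.33.

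Regulators of the hair matrix and precortex, the zone in which the shaft is laid down, held 4 genes with a lower log2 fold change than Foxq1. Of 40 listed genes 29 were tested, none passed in limma and 9, all below 0, had an unadjusted p under 0.05, or 9 of 29 beside 6.93% of all probe sets in that direction. Without overlap, 8 were lower and 2 higher. The list's median was -0.17, but 0.08 when the arrays were centred on the hair shaft keratins, -0.0031 with the dimmest 50% of probe sets left out and -0.10 without FVB replicate 2. Without GC13 replicate 2, 6 of the 29 passed, all of them lower.

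Foxn1, another forkhead gene, whose loss gives the nude coat, had 41.3, 46.3 and 53.5 in FVB against 19.0, 1.31 and 4.35 in GC13. The GC13 values were all lower but differed widely among themselves, and the lowest was on replicate 2, where Foxq1 was the highest of its group. Its log2 fold change was -2.60 (SE 0.55, limma adjusted p = 0.1). Hoxa7, a Hox gene also transcribed in skin, had 37.7, 42.4 and 23.4 in FVB against 6.55, 14.2 and 6.44 in GC13. The fitted log2 difference was -1.68 (SE 0.39, limma adjusted p = 0.126). Like Foxq1, it was highest among the GC13 arrays on replicate 2. Wnt5a, a secreted Wnt ligand, had 31.3, 35.3 and 32.6 in FVB against 12.1, 15.97 and 11.2 in GC13, with a log2 fold change of -1.16. Bmp2, a growth factor of the shaft precursors, had a log2 fold change of -1.00 and was the fourth with a lower value than Foxq1. Dlx3, a homeobox gene of the matrix, had 726, 719 and 663 in FVB against 355, 355 and 403 in GC13. The difference was -0.85 on the log2 scale (SE 0.19, limma adjusted p = 0.126). None of these genes overlapped between the groups, and none passed.

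Genes of the inner root sheath and the medulla, the core of the shaft that is malformed in satin mice, held the 1 member of the follicle lists that passed. Krt72, which encodes an inner root sheath keratin, fell with a log2 difference of -1.37 (SE 0.19, limma adjusted p = 0.0351). Its intensity was 1089, 1103 and 1216 in FVB against 474, 361 and 424 in GC13. This call was lost without each array in turn except GC13 replicate 2, at limma adjusted p from 0.0918 to 0.301, and with the arrays centred on the hair shaft keratins, at 0.0612. Padi1, a peptidylarginine deiminase, had 168, 181 and 173 in FVB against 88.3, 79.7 and 81.6 in GC13. Its log2 difference of -0.97 (SE 0.20, limma adjusted p = 0.0894) equalled that of Foxq1 with a smaller error. Padi3, which modifies the trichohyalin of sheath and medulla, had 525 ± 19.5 in FVB against 340 ± 37.8 in GC13 (SD, n = 3), a log2 fold change of -0.55. Of the 20 members tested of 29 listed, 1 passed (0.472% over all probe sets) and 13 lay below 0 (42.6%). Without overlap, 6 were lower (9.91% over all probe sets) and 3 higher, near the 14.6% over all. An unadjusted limma p under 0.05 was found for 6 of 20, all below 0 (6.93% over all probe sets in that direction). The list's median was -0.08, but 0.17 with the arrays centred on the hair shaft keratins, -0.05 without FVB replicate 1, -0.26 without GC13 replicate 1 and -0.17 without GC13 replicate 2.

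Among genes chosen for a role in the mouse coat, Foxq1 stood near the low end. This list shares genes with the matrix and inner root sheath lists, such as Foxn1, Dlx3 and Padi3, so their counts are not separate. Of 59 listed genes 38 were tested and none passed in limma, while 11 of 38 had an unadjusted p under 0.05 (15.5% over all probe sets), 10 of them below 0. Without overlap, 10 were lower and 4 higher, and the median was -0.23, which became 0.02 with the arrays centred on the hair shaft keratins, -0.06 with the dimmest 50% left out, -0.15 without GC13 replicate 2 and -0.12 without GC13 replicate 3. The 3 with a lower log2 fold change than Foxq1 were Foxn1, the triglyceride synthesis gene Dgat1 at -1.51 and the desmosomal cadherin gene Dsc3 at -1.08. A second probe set of Dgat1 had 0.86, and Dsc3 had 0.10 with the Gapdh ratio as covariate. Tgfa, the EGF receptor ligand mutated in waved-1 mice, had 83.2, 81.3 and 72.1 in FVB against 41.1, 40.6 and 37.9 in GC13. Its 3 GC13 arrays were close together, and the log2 fold change was -0.87 (SE 0.21, limma adjusted p = 0.135).

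**Figure D3:**
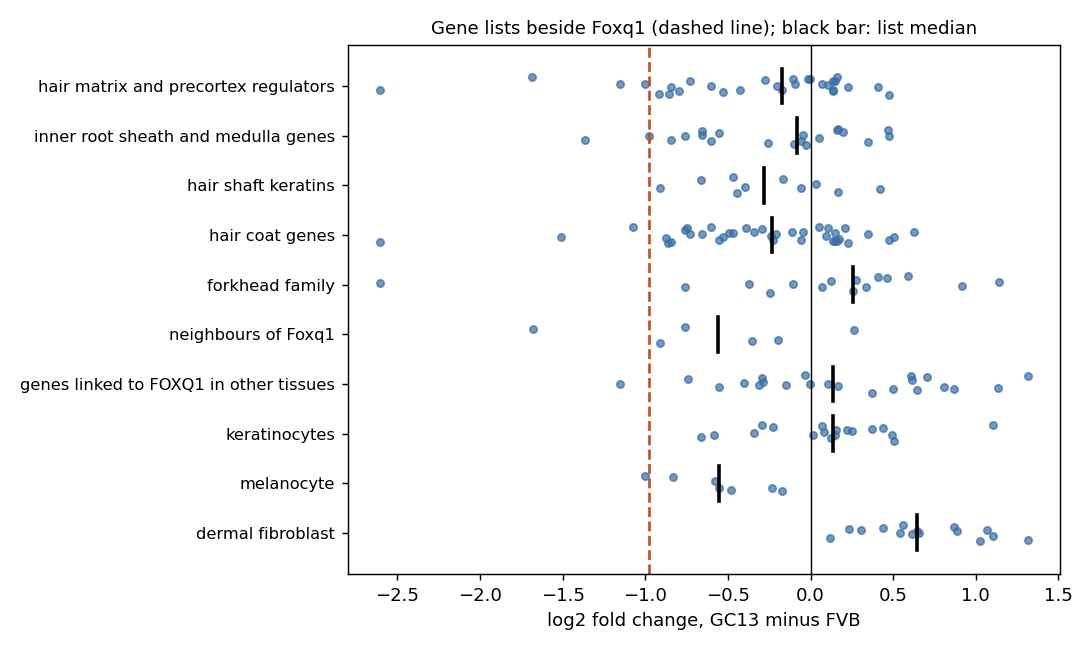
Log2 fold change, GC13 minus FVB, of each tested member of 10 gene lists (points), with the list median (black bar) and the value of Foxq1 (dashed line at -0.97). Each gene is shown by its brightest probe set. Few members of any list lie left of the dashed line, at most 4 in the hair matrix and precortex list, while the dermal fibroblast genes all lie above 0.

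The other forkhead genes lay on both sides of 0. Besides Foxq1 the array named 25 forkhead genes, of which 15 were bright enough to be tested. None of the 15 passed in limma and 2 of 15 had an unadjusted p under 0.05, Foxn1 and Foxj1, near the 15.5% over all probe sets. By the brightest probe set of each gene, 10 of the 15 lay above 0 and 5 below, with a range from -2.60 to 1.14. Over all probe sets tested 42.6% lay below 0. By these probe sets Foxn1 alone had a lower value than Foxq1. A dimmer probe set of Foxm1 had -1.34 against 0.07, and one of Foxc2 had 0.27 against -0.25. The median of the 15 was 0.26. The median was 0.10 without FVB replicate 1, 0.12 without GC13 replicate 3 and between 0.08 and 0.51 over all alternatives. Without overlap, Foxn1 was lower and Foxj1, Foxp1 and Foxd1 were higher on the centred scale. Foxj1, the regulator of motile cilia, was dim, with 7.49, 6.25 and 8.18 in FVB against 21.3, 6.43 and 35.2 in GC13, so its intensities overlapped. Foxp1, a regulator of hair follicle stem cells, had 96.3 ± 8.97 in FVB against 122 ± 7.15 in GC13 (SD, n = 3), a log2 fold change of 0.41, while a second, dimmer probe set had -0.58. Foxo3, a target of insulin signalling, had 360.5, 337 and 351 in FVB against 220, 343 and 223 in GC13. Its log2 fold change was -0.37 (limma adjusted p = 0.574), and GC13 replicate 2 lay within the FVB range. The 10 left out as dim were Foxa1, Foxa2, Foxa3, Foxb1, Foxb2, Foxd3, Foxd4, Foxf1, Foxf2 and Foxh1, for which no test was made.

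Foxq1 lies on chromosome 13 beside 2 other forkhead genes, Foxf2 and Foxc1, in the RefSeq annotation of GRCm38.p6. Of the 5 nearest genes with a probe set on each side, 6 were tested and none passed in limma, with 1 of 6 at an unadjusted p under 0.05, near the 15.5% over all probe sets. Foxf2, the next gene, was dim on all arrays, between 0.274 and 1.55, and was not tested. Foxc1, a regulator of mesenchymal and hair follicle stem cells with 1 protein-coding gene between it and Foxq1, had 25.8, 23.2 and 12.9 in FVB against 7.89, 19.5 and 6.75 in GC13. The groups overlapped, and its log2 fold change was -0.76 (SE 0.46, limma adjusted p = 0.466). Irf4, an interferon regulatory factor of pigment and immune cells, had -0.91 (SE 0.50, limma adjusted p = 0.427). Sox4, a transcription factor of progenitor cells that is further away, with 9 protein-coding genes between, had 154, 139 and 148 in FVB against 57.6, 19.7 and 64.9 in GC13. The groups did not overlap and the log2 difference was -1.68 (SE 0.35, limma adjusted p = 0.0977), but a second probe set of Sox4 had 0.00. The other 3 tested, E2f3, Wrnip1 and Serpinb9, had -0.19, -0.36 and 0.26, with overlap in each. The median of the 6 was -0.56 and was 0.00 with Eif2s3y as covariate, -1.05 without GC13 replicate 2 and -0.21 without GC13 replicate 3. On GC13 replicate 2 alone it was 0.20.

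Genes linked to FOXQ1 in other tissues, mostly in carcinoma cells where it promotes a mesenchymal state, lay on both sides of 0. Of 26 listed genes 22 were tested, and 1 passed in limma (0.472% over all probe sets). An unadjusted limma p under 0.05 was found for 10 of 22 (15.5% over all probe sets), 2 of them below 0. Without overlap, 9 were higher (14.6% over all probe sets) and 3 lower (9.91%). The median was 0.14, or -0.04 with the arrays centred on the keratinocyte list and 0.55 with the dimmest 50% left out. It was 0.22 without GC13 replicate 1 and 0.25 without GC13 replicate 2. Vcan, the proteoglycan versican, rose with a log2 difference of 1.32 (SE 0.21, limma adjusted p = 0.0489), from 142, 150 and 175 in FVB to 366, 377 and 367 in GC13. The call was lost under 10 of the 20 alternatives. Twist1 and Snai1, transcription factors of mesenchymal cells, had 1.13 and 0.81, neither past the threshold. Wnt5a, given above, was the 1 gene of this list with a lower value than Foxq1. Cdh1, the E-cadherin gene that FOXQ1 represses in carcinoma cells, had 45.7, 55.3 and 64.8 in FVB against 71.4, 36.2 and 120 in GC13. The groups overlapped, and its log2 fold change of 0.37 had an interval from -0.41 to 1.16. Cdkn1a, the cell cycle inhibitor p21, had 314 ± 36.8 in FVB against 177 ± 15.1 in GC13 (SD, n = 3), without overlap and with a log2 fold change of -0.74 (limma adjusted p = 0.151). A dimmer probe set of Cdkn1a had -1.74.

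Markers of some other skin cells differed between the groups as well, and their part in the Foxq1 difference was not tested. Over all probe sets tested 42.6% lay below 0, and 14.6% lay higher and 9.91% lower without overlap. Dermal fibroblast genes, which include Vcan, lay above 0 in 15 of 15 by their brightest probe sets, 13 without overlap. In limma 11 of 15 had an unadjusted p under 0.05 (15.5% over all probe sets) and 1 passed (0.472%). Their summed intensity was 13500 to 14185 in FVB against 17417 to 22475 in GC13. A dimmer probe set of Eln, the elastin gene, had -0.96 against 1.03. Melanocyte genes lay below 0 in 7 of 7 tested, 5 without overlap, and none passed in limma, while 5 of 7 had an unadjusted p under 0.05 (15.5% over all probe sets). Their summed intensity was 1181 to 1225 in FVB against 702 to 911 in GC13. Skeletal muscle genes had 7 of 15 higher without overlap and a median of 0.40, endothelial genes 4 of 9 higher, 1 lower (Cldn5) and 0.40, mast cell genes 3 of 5 and 0.55, and adipocyte genes 3 of 8 higher, 1 lower (Lipe) and 0.31, or 0.53 without GC13 replicate 3. Macrophage genes, with 2 of 10 higher and 2 lower, had a median of 0.11, which ran from 0.02 without GC13 replicate 2 to 0.16 without GC13 replicate 3. Erythroid genes, with none of 5 apart, had -0.32, or -0.79 without GC13 replicate 2 and -0.17 without GC13 replicate 1. The macrophage median was below 0 with the arrays centred on keratinocytes, at -0.07, and with the Gapdh ratio as covariate, at -0.35, and the erythroid median above 0 with Eif2s3y as covariate, at 0.08, and without GC13 replicate 3, at 0.01. None of these last 6 lists had a member past the threshold in limma, and 3 of 9 endothelial, 4 of 15 muscle, 3 of 5 mast cell, 3 of 8 adipocyte, 3 of 10 macrophage and 1 of 5 erythroid genes had an unadjusted p under 0.05, beside 15.5% of all probe sets. No marker was at an intensity of 0, since all deposited values were above 0.

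The array-by-array pattern of Foxq1 was matched most closely by 12 probe sets of genes from unlike pathways. Likeness was the root mean square, over the 6 arrays, of the difference between the log2 values of a probe set and of Foxq1, each minus its own mean. The 8380 named probe sets compared had a median distance of 0.63, and a probe set with no change at all would have had 0.53. The nearest was Oca2, a melanosome transporter gene, at 0.10, with intensities of 69.5, 71.0 and 72.2 in FVB against 34.0, 36.9 and 27.8 in GC13. Glul, the glutamine synthetase gene, followed at 0.10, with 247, 246 and 240 in FVB against 115, 134 and 99.1 in GC13. Another probe set, dimmer, of Glul had a log2 fold change of 0.88 against -1.00 here.

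Then came Acpp, an acid phosphatase gene, at 0.10, with 290 ± 1.80 in FVB against 145 ± 9.02 in GC13 (SD, n = 3), and Wnt5a at 0.12. The others were the sterol synthesis gene Nsdhl, the Ras-like gene Rasl11b, the xanthine dehydrogenase gene Xdh, the mitochondrial ribosomal gene Mrpl54, the gamma-synuclein gene Sncg, the agrin gene Agrn, Padi1 and the uridine phosphorylase gene Upp1, at 0.12 to 0.15. Log2 fold changes of the 12 ran from -1.16 to -0.77, and none passed in limma. All 12 had an unadjusted limma p under 0.05 (15.5% over all probe sets) and lay lower in GC13 without overlap (9.91%). In 10 of them GC13 replicate 2 was the brightest GC13 array, as for Foxq1. These counts follow from the choice of the 12 by likeness to Foxq1 on the same arrays, so they are no separate result. For Agrn and Upp1 a brighter probe set of the same gene had 0.29 and 0.39, and for Sncg -0.61. Nsdhl had -1.41 by a brighter and 0.35 by a dimmer probe set, against -0.94 for the one listed. Of the genes in the follicle lists, Wnt5a, Padi1, Tgfa, Dlx3, Msx1 and Krt84 were the nearest, at distances of 0.12, 0.15, 0.17, 0.20, 0.20 and 0.20. The points share the arrays and their scaling, so the likeness is a description of 6 arrays.

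**Figure D4:**
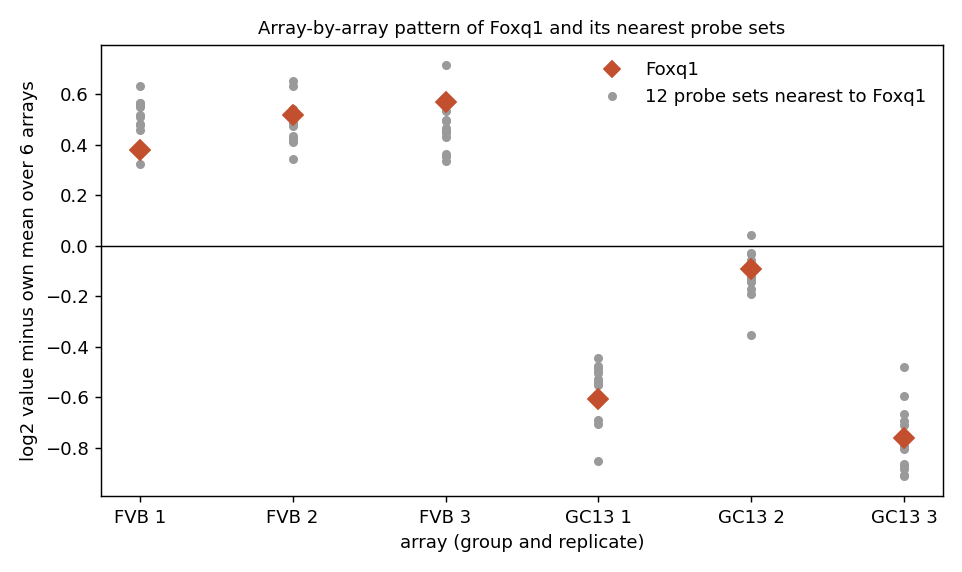
Log2 value of each array minus the probe set's own mean over the 6 arrays, for Foxq1 (red diamonds) and the 12 probe sets nearest to it (grey points). All 13 are above 0 on the FVB arrays, and lowest on GC13 replicates 1 and 3, with GC13 replicate 2 between the groups.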

How the data were processed

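Total RNA of 6 skin samples was hybridised to single-colour Affymetrix arrays. The authors deposited linear intensities of 12488 probe sets per array. No software, background correction or detection call behind them is named by the sources used here. Each array had the same mean with the highest and lowest 2% left out (100.1). The authors' deposited intensities had thus been brought to a common level, by steps that are not named. They summed to between 1626361 and 1736141. Depth has no equivalent here, and the 3 arrays per group limit the precision.

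The 66 control probe sets were left out, log2(intensity + 2) was taken, and each array was centred on its median, since the medians differed by up to 0.345. The dimmest 25% by mean were left out. A fold change on this scale understates the change of dim probe sets. GC13 was compared with FVB over the 9316 left by limma 3.58.1 in R 4.3.3, two-sided, with Benjamini-Hochberg adjustment and a threshold of 0.05. Values called lower or higher without overlap are on the centred scale. The fit was tested on simulated data. Of the probe sets, 10833 had 1 gene symbol, 396 several and 1193 none, and 10817 matched RefSeq (GRCm38.p6) by Entrez identifier, which was used only for names, chromosome and gene order. A gene with several probe sets stood by the brightest. The gene and the lists were chosen with earlier results of these data known. Named genes were Foxq1, the 12 probe sets nearest to it, forkhead genes, neighbours, and the 4 list members with the smallest p. Bmp2, Dsc3, Cdkn1a, Cdh1, Msx1, Trp63, Krt10, Krt5, Krt14 and Krt15 were named outside that rule, after their values were seen. Alternatives were other pseudocounts, filters, scalings, variance models, covariates, a replicate block and each array left out.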

Additional observations from a re-analysis of the deposited data

How the results depend on the processing

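Foxq1 lay below 0 under all 20 alternatives and past the threshold under 3: array weights (-1.07, limma adjusted p = 0.000751), the Gapdh ratio as covariate (-1.52) and without GC13 replicate 2 (-1.17). With array weights 41.3% of all probe sets passed. GC13 replicate 2 had the lowest array weight, 0.107, and the highest Gapdh ratio, so these 3 are not separate results. Leaving out 1 array gave -1.17 to -0.84. The count of probe sets past the threshold, 44, was 83 and 119 with pseudocounts of 16 and 32, 23 with the dimmest 50% left out, 28 without centring, 105 and 21 with the arrays centred on keratinocytes and on hair shaft keratins, 3850 with array weights, 2162 and 687 with the Gapdh ratio and Eif2s3y as covariates, and 0 to 1379 without 1 array. In limma it was 0 without FVB replicate 1, 2 or 3, where 768, 803 and 946 probe sets had an unadjusted p under 0.05, 9 and 11 without GC13 replicates 1 and 3, and 1379 without GC13 replicate 2. Samples share only a number: same-numbered deviations correlated at -0.07, 0.18 and 0.36, and not every sample correlated best with its own number. The replicate block gave 78 calls and left Foxq1 at -0.97 (limma adjusted p = 0.126). Direction turned for Dsc3 (0.10), Krt86 (0.14), Lipe (0.0459) and Serpinb9 (-0.15) with the Gapdh ratio as covariate, for E2f3 (0.0343), Wrnip1 (0.35), Foxo3 (0.0687) and Cdh1 (-0.10) with Eif2s3y, for E2f3 (0.0547) with the arrays centred on hair shaft keratins, and for E2f3 (0.008, and -0.35 without GC13 replicate 2) and Wrnip1 (0.0205) without GC13 replicate 3. The cause was not tested. Signal over background is unknown, so dim genes are the least certain.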
